A study of Mus musculus with 4 samples.

Results

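Convergent gene pairs are neighbours on opposite strands that are transcribed towards each other, so that their 3′ ends overlap tail to tail. They were taken from the gene models in the count files. A pair entered where a plus-strand and a minus-strand gene shared at least 100 bp of exon, where both bounds of the plus-strand gene lay below those of the minus-strand gene, and where the shared exon made up under 80% of either gene. Chromosomes M, X and Y were left out. Of the 4597 opposite-strand pairs that shared any exon base, 1041 were convergent, and they held 2073 of the 50600 annotated genes. The counts come from 4 libraries of T-helper 2 (Th2) cells, the helper T cells of type 2 immunity, known for secreting interleukins such as IL-4. The cells were primary mouse cells, strain C57BL/6NJ, and the names in the file headers refer to a sort at 72 h. All 4 libraries form 1 group of replicates numbered 1 to 4, with no treatment, genotype or control group named. The labels give each library its own biosample but 1 donor entry for all 4, with age and sex not recorded, so the spread between libraries may be that between cultures or technical.

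At the end of a gene the polymerase copies a short signal, usually read as AATAAA or ATTAAA in the DNA, after which the RNA is cut and a poly(A) tail is added. The polymerase itself often runs on beyond that point, and at a convergent pair it then runs into the neighbour's exons on the opposite strand. RNAs from both genes of such a pair are complementary over the shared stretch, and only a strand-aware count can assign a fragment from it to one gene or the other. The counts were made with a strand option, but the sources used here do not give which strand the library kit reads. A value below is therefore the number of fragments assigned to a gene's annotated strand. Whether those fragments came from that gene's RNA or from the RNA of its partner was not tested, and the values are not to be read as expression levels of the named genes.

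The last 30 bases of 10 members are printed here to show how both strands of 1 locus carry a 3′ end. The 5 pairs were chosen after their sequences were seen, because the hexamer AATAAA or ATTAAA stood in both ends. Both ends lie inside the shared exon for Ppib with Snx22 and for Icam1 with Gm47079. For Phykpl with Hnrnpab and Serbp1 with Il12rb2 only 1 end does. For 1700022I11Rik with Vcp neither end does, so that pair does not overlap at its 3′ ends. Each sequence was read from a GENCODE M21 transcript (GRCm38, the assembly also called mm10) whose end equals the gene's bound in the count files. It runs 5′ to 3′ on the gene's own strand, with the hexamer in capitals. Ppib, a peptidyl-prolyl isomerase of the endoplasmic reticulum, ends on the plus strand at chr9:66066594-66066623, and Snx22, a sorting nexin, on the minus strand at chr9:66065176-66065205. Phykpl, a phospho-lyase of hydroxylysine breakdown, ends on the plus strand at chr11:51604460-51604489, and Hnrnpab, an RNA-binding protein, on the minus strand at chr11:51600100-51600129. The ends of Serbp1, an mRNA-binding protein, and Il12rb2, a chain of the IL-12 receptor, lie at chr6:67297707-67297736 (plus) and chr6:67291318-67291347 (minus). Those of Icam1, an adhesion molecule, and the antisense gene Gm47079 lie at chr9:21028788-21028817 (plus) and chr9:21028307-21028336 (minus). Those of 1700022I11Rik and Vcp, an ATPase that extracts proteins for degradation, lie at chr4:42983611-42983640 (plus) and chr4:42979963-42979992 (minus).
Ppib: atgctgatcAATAAAgtgggttttttttat
Snx22: ccaaggaacataaAATAAAagatgcccatg
Phykpl: tttaaatgtAATAAAaacaaaaccccgtct
Hnrnpab: gttttcttaAATAAAttgagggagaccttg
Serbp1: aatggttgAATAAAtttatcctatcactgc
Il12rb2: tctcagctcATTAAActcatttaaagacct
Icam1: aatcAATAAAgttttatgtcggcctgagtg
Gm47079: aattAATAAAtacatcaagaagagttgggg
1700022I11Rik: ctcatattttaAATAAAatcgcattaatca
Vcp: aaaggacAATAAAtgttgggtcaaaatgga

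Both ends carried a hexamer in a minority of the pairs. AATAAA or ATTAAA, searched on the gene's own strand only, stood in the last 50 bases of 63.4% of the 1982 members with a matching transcript (95% Wilson interval 61.2 to 65.5). Among the 1441 protein-coding members the share was 70.2% (67.8 to 72.5), against 71.6% (70.9 to 72.2) of 18867 protein-coding genes of the whole annotation and 77.1% (74.7 to 79.3) of 1288 protein-coding genes in divergent pairs, which overlap head to head. Among the 541 other members, most of them noncoding, it was 45.1% (41.0 to 49.3). Both members held a hexamer in 376 of the 957 pairs with 2 matching transcripts, which is 39.3%. The intervals cover counting error only, and a missing hexamer says only that these letters are not in that window.

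The pairs differed widely in how much they share. The shared exon ran from 100 to 4590 bp with a median of 411 bp (quartiles 215 and 879), and it reached 300 bp in 648 pairs and 1000 bp in 211. It made up a median of 21.5% of the more covered gene and 8.82% of the other. Both genes were protein-coding in 562 pairs, 1 in 405 and neither in 74, and 9 genes stood in 2 pairs each. Of the 562 coding pairs, 191 shared no coding sequence of either gene, 271 that of 1 gene and 100 that of both. The overlap was measured on the whole gene model, and both annotated 3′ ends lay inside the shared exon in 293 pairs, 1 end in 400 and neither in 348, so the name by 3′ ends holds in the strict sense for the first of these classes. Within 10 bp of the limit of 100 bp, 36 pairs lay inside with a median of 67.7 counts per 1000000 (CPM) for both genes together, and 27 lay outside with 26.2 CPM. Within 5 percentage points of the limit of 80%, 10 pairs lay inside with a median of 573 CPM, and 18 outside with 53.9 CPM.

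The libraries were shallow, with total gene counts from 1274431 to 1857433, so that a count of 0 allows up to 1.62 to 2.35 CPM (3 counts). Markers of the cell type that share no exon with another gene are given in counts per library. The median protein-coding gene without an opposite exon had no count in any library, so a count of 0 or a low sum among such markers says little about the cells present. The 5 such Th2 markers of 8 summed to 160 to 407 counts and the 5 T cell markers of 6 to 91 to 567, both lowest in replicate 3. The 4 B cell markers summed to 2 to 41, nearly all from Cd79a, a chain of the B cell receptor, with 35, 41, 9 and 2 counts. Of the 3 such myeloid markers only Cd68, a lysosomal protein of macrophages, was counted, at 16, 11, 33 and 0, while Ms4a1, Lyz2 and Itgam were at 0 in 4 of 4 libraries. The CD8 and natural killer markers Cd8a, Cd8b1, Ncr1 and Klrb1c were also at 0 in all 4.

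Genes of convergent pairs held 41.1%, 42.2%, 43.8% and 38.7% of all counts in replicates 1 to 4, a mean of 41.4% ± 2.14 (SD, n = 4), while they made up 4.10% of the annotated genes. The 95% Wilson interval was 38.6% to 38.8% in replicate 4 and 43.7% to 43.8% in replicate 3, so the libraries differed by more than counting error. Genes of divergent pairs, about as many, held 16.2% ± 1.22, and the 2 sets had 222 genes in common. The 38380 genes with no exon opposite another gene held 15.4%, 7.91%, 8.52% and 18.8%. Convergent members were lowest in replicate 4, where genes without an opposite exon were highest. Among the 100 genes of highest mean count 58 were convergent members, and the 20 highest members held 24.4% of the members' counts. A mean count of at least 10 was reached by 1377 members, or 66.4%, against 15.3% of all annotated genes and 27.9% of protein-coding genes, while 330 members had no count in any library.

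**Figure D1:**
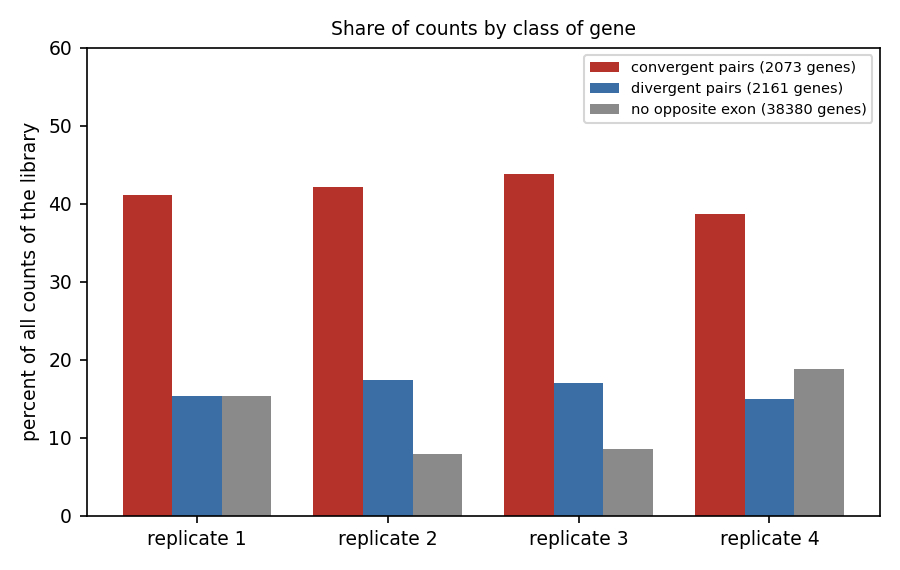
Percent of all counts of each library (vertical axis, from 0) held by genes of convergent pairs, genes of divergent pairs and genes without an opposite exon (bars, 1 library per replicate). The convergent bars stand between 38.7% and 43.8% and are the highest of the 3 in every library, while the grey bars run from 7.91% to 18.8%.

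The members also stood higher per kb of exon. Over protein-coding genes, the median log2 of CPM per kb of exon, with 1 added, was 2.64 ± 0.23 (SD, n = 4) for 1391 genes of convergent pairs and 1.06 ± 0.32 for 1219 genes of divergent pairs, leaving out genes in both. The difference within a library was 1.58 ± 0.12 on this log2 scale and was positive in 4 of 4 libraries (exact two-sided sign-flip permutation test, p = 0.13, the smallest p that 4 libraries allow). Against 15907 protein-coding genes without an opposite exon, whose median was 0 in every library, the 1522 convergent members were higher by 2.73 ± 0.21, again in 4 of 4 libraries (same exact permutation test, p = 0.13). Because that comparison median is 0, the 1 added sets the size of this difference: it was 5.84 with 0.1 added and 4.74 on the scale of CPM without length, and the difference from divergent genes was 2.20 and 2.10. The test cannot pass 0.05 with 4 libraries, so it adds no support. Both differences exceeded the spread between libraries, which may be only technical. Restricted to genes whose mean count reached 10, they were 1.13 ± 0.23 and 1.98 ± 0.63.

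The 2 genes of a pair seldom had like densities. A density here is counts per kb of the gene's exon, with 0.5 count added before a ratio is taken, and the denser member is the one that the mean log2 ratio over the 4 libraries favours. Of the 1041 pairs, 752 had at least 20 counts, both members together, in every library, 110 had none in any and 179 fell below that minimum. In the 752 counted pairs the denser member exceeded the other by a median of 18-fold (quartiles 4.31 and 84.2). In 453 pairs (60.2%) the gap was at least 10-fold, against 68.8% of all opposite-strand pairs that share at least 100 bp and 65.2% of divergent pairs, so gaps of this size were no more frequent than in the background. It was at least 100-fold in 170 pairs and under 2-fold in 94. In 17 pairs 1 member had no count in any library, and with those at a floor of 3 counts over the 4 libraries the median stayed at 18-fold.

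**Figure D2:**
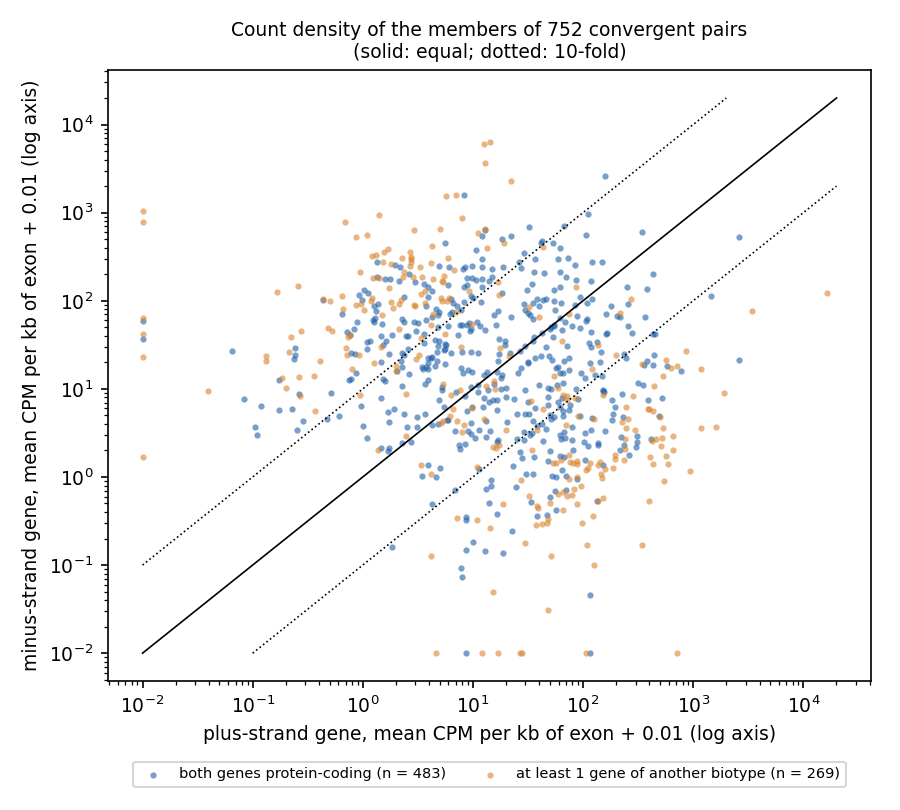
Mean CPM per kb of exon, with 0.01 added, of the plus-strand gene (horizontal, log axis) against the minus-strand gene (vertical, log axis) for the 752 counted pairs, 1 point a pair, blue where both genes are protein-coding. Most points lie outside the dotted 10-fold lines, on either side of the solid line of equal density, and 374 pairs have the denser member on the plus strand against 378 on the minus strand.

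The libraries ranked the 2 members alike in nearly every pair. The same gene was denser in 4 of 4 libraries in 694 of 752 pairs (92.3%), close to the 92.9% of all opposite-strand pairs and the 92.2% of divergent pairs. Of the 58 pairs in which the denser member changed between libraries, 57 had a mean gap under 4-fold, the widest being 4.24-fold. The plus-strand gene was denser in 374 pairs and the minus-strand gene in 378, so neither strand of the genome led.

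Biotype went with the size of the gap. In 483 pairs of 2 protein-coding genes the median gap was 9.24-fold, and 49.1% reached 10-fold. In 258 pairs of a protein-coding gene with a gene of another or unmatched biotype, annotated as antisense in 165, it was 77.3-fold, and 80.6% reached 10-fold. The member that is not protein-coding was the denser one in 244 of these 258 pairs, in 236 of them in 4 of 4 libraries. Divergent pairs of the same kind had the coding gene sparser in 312 of 353. The gap also differed by where the annotated ends lie, with a median of 9.16-fold in 221 pairs with both 3′ ends in the shared exon, 19.1-fold in 304 with 1 end there and 42.6-fold in 227 with none. These values are descriptions, since the classes also differ in biotype and length.

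The pairs with the most counts show the pattern gene by gene. Phykpl had 25486, 24264, 21990 and 17041 counts in replicates 1 to 4, while Hnrnpab, an abundant nuclear RNA-binding protein in growing cells, had 744, 460, 366 and 444. The pair shares 809 bp on chromosome 11, and Phykpl was denser by 3.69 ± 0.38 (SD, n = 4) on the log2 scale of counts per kb, with no overlap between the genes' counts. Tlcd1, a membrane protein with a TLC domain, had 26762, 24178, 19634 and 13890 counts, and Rpl23a, a protein of the large ribosomal subunit, 1319, 423, 361 and 747. The gap was 2.48 ± 0.88, and Rpl23a had its lowest counts in replicates 2 and 3.

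Reads of ribosomal protein genes can also match their processed pseudogenes elsewhere in the genome, so the level of Rpl23a is uncertain. The pseudogene 1810014B01Rik had 15131, 17043, 14016 and 11700 counts against 685, 253, 215 and 736 for Hsp90b1, the HSP90 chaperone of the endoplasmic reticulum, a gap of 5.74 ± 1.07. Here too the less dense gene was lower in replicates 2 and 3 than in 1 and 4.

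Acat3, an acetyl-CoA acetyltransferase, and Tcp1, a subunit of the CCT chaperonin, gave the steadiest ratio among the 10 pairs of most counts. Acat3 had 10560, 11050, 9737 and 7622 counts and Tcp1 1364, 1586, 1127 and 1000, and Acat3 was denser by 4.05 ± 0.13. Both genes are protein-coding and share 571 bp that hold coding sequence of each. In the pair whose ends are printed above, Snx22 had 8171, 9031, 6774 and 5526 counts and Ppib 100, 32, 21 and 28, a gap of 7.78 ± 0.88. Ppib is known as a widely used and abundant mRNA, and its strand carried fewer counts than that of Snx22 in 4 of 4 libraries.

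In 4 more of these pairs the denser gene was a kinase gene or an annotated antisense or long noncoding gene. Map3k12, a kinase best known from neurons, had 4077 ± 440 CPM (SD, n = 4) and Pcbp2, a poly(rC)-binding RNA-binding protein, 154 ± 41.8. Gm20496 had 3960 ± 591 CPM and Psmb8, a catalytic subunit of the immunoproteasome, 34.8 ± 8.83. Gm26582 had 3716 ± 54.5 CPM and G3bp2, a stress granule protein, 30.7 ± 20.6. Gm15283 had 3327 ± 409 CPM and Hif1a, the oxygen-regulated subunit of the hypoxia factor, 130 ± 97.7. In each of these pairs the denser gene had more CPM than its partner in every library, which the plot of both members by library shows. Per kb, 1 member was denser in 4 of 4 libraries in 92.3% of counted convergent pairs and 92.9% of all opposite-strand pairs.

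**Figure D3:**
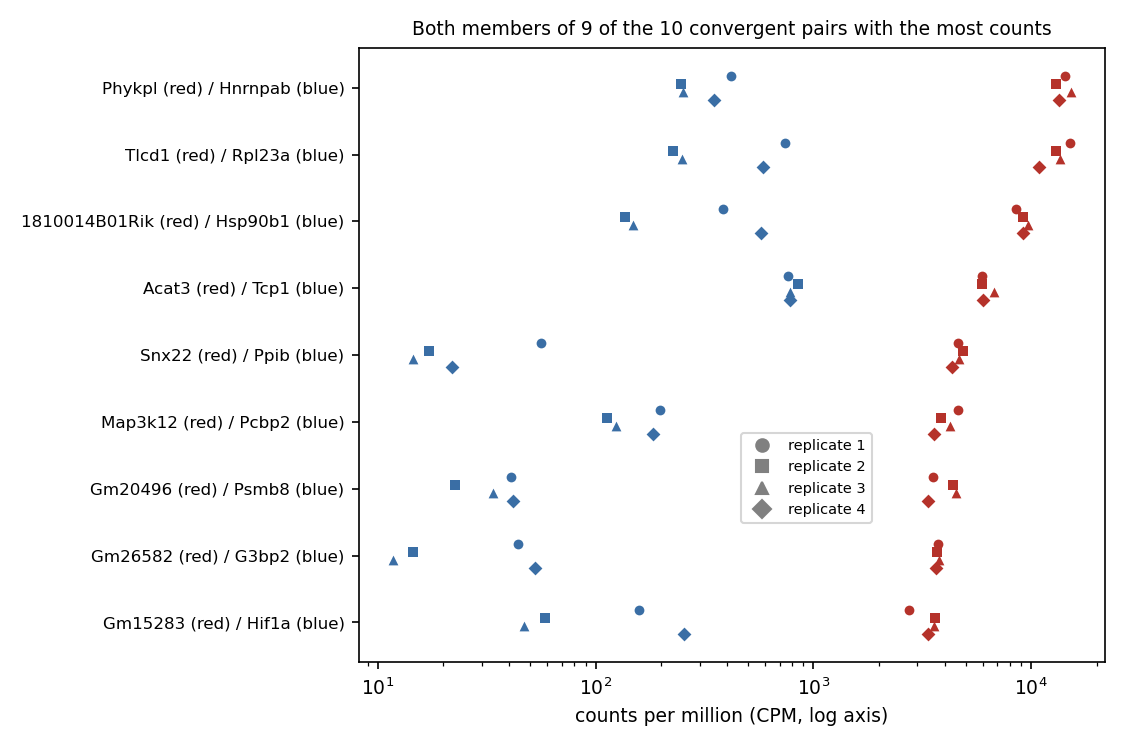
CPM (horizontal, log axis) of both members of 9 of the 10 convergent pairs with the most counts, red for the denser member and blue for its partner, 1 symbol per replicate. The red symbols of a pair lie close together and far right of the blue ones. The blue symbols spread more widely except for Tcp1, which lies about as close together as Acat3. For every partner but Tcp1, replicates 1 and 4 lie to the right of the others, as for Hsp90b1 and G3bp2.

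The 5 most unequal pairs among those where each gene had at least 20 counts in all were pairs of a coding gene with an annotated antisense gene. Dpp8, a serine dipeptidyl peptidase of the cytosol, had 56, 9, 0 and 51 counts while Gm47350 had 867, 1144, 858 and 736, a ratio of 10.88 ± 3.25 log2 units in favour of Gm47350. Srcap, the ATPase of a chromatin remodelling complex, had 9, 22, 26 and 10 counts against 688, 613, 677 and 363 for Gm28198, a ratio of 10.25 ± 0.69. The spread of the first ratio comes with a count of 0 in replicate 3, where the added 0.5 count sets the ratio, and without that library it was 9.42 ± 1.75. For Zfp280d, a zinc finger protein, and BC065403 the ratio was 9.81 ± 2.18 with a count of 0 for Zfp280d in replicate 3, and 8.72 ± 0.06 over the other 3 libraries. For Rnpep, an aminopeptidase, and Gm26642 it was 9.78 ± 1.16, and for Atp11a, a phospholipid flippase, and Gm15347 9.66 ± 1.59. In all 5 pairs the antisense gene was denser in 4 of 4 libraries. These pairs were picked by the size of the ratio, so the constant order adds nothing. Of the 574 counted pairs at least 4-fold unequal, 573 had 1 denser member in 4 of 4.

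At the other end stood pairs of 2 coding genes at near-equal density in the mean over libraries. Surf2 and Surf4, neighbours of the surfeit gene cluster on chromosome 2, share 144 bp at their tails. Surf2 had 240, 301, 227 and 153 counts and Surf4, a cargo receptor of the early secretory pathway, 278, 297, 172 and 165. The mean log2 ratio was 0.03 ± 0.27 in favour of Surf4, less than its spread, and Surf2 was the denser in replicate 3 only. Rab3gap2, a regulatory subunit of a Rab GTPase regulator, and Iars2, the mitochondrial isoleucyl-tRNA synthetase, share 2034 bp and had 8.43 ± 1.61 and 8.24 ± 1.89 CPM per kb. Their ratio of 0.04 ± 0.34 changed sign between libraries. Lipt1 with Mitd1, Dcaf8 with Pea15a and Tmem263 with Mterf2 also differed by less than their spread, with mean folds of 1.03, 1.03 and 1.00. The SD of their log2 ratios was 0.33, 1.41 and 0.41. Dcaf8 with Pea15a was equal only in the mean, since its log2 ratio ran from -1.31 to 1.68 over the libraries.

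The pairs with the longest shared exon were all pairs of 2 coding genes, with gaps of very different size. Nr2c2, a nuclear receptor, and Mrps25, a mitochondrial ribosomal protein, share 4590 bp. Nr2c2 had 182, 205, 188 and 185 counts and Mrps25 2416, 2807, 2353 and 1885, so Mrps25 was denser by 4.81 ± 0.19. Nr1i3, a nuclear receptor best known from liver, shares 3304 bp with Tomm40l and had 1636, 2139, 1668 and 1195 counts against 20, 12, 15 and 25. Cntd1 shares 3104 bp with Becn1, a core protein of autophagy, and had 3108, 3155, 2636 and 2039 counts against 76, 68, 97 and 82. Echdc1 and Rnf146, a ubiquitin ligase, share 3129 bp, or 75.9% and 70.2% of their exon, and differed by 0.90 ± 0.16.

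Over all counted pairs, the median CPM of both members was higher where more was shared, but the gap per kb did not follow the shared length. In the 251 pairs that share 100 to 302 bp the denser member had a median of 105 CPM and the sparser 15.4. In the 251 pairs that share 304 to 746 bp the values were 233 and 17.0 CPM, and in the 250 that share 749 to 4590 bp 386 and 24.6 CPM. The median gap per kb in the same order was 17.5-fold, 22.6-fold and 14.3-fold. Spearman's rho with the shared length over the 752 pairs was 0.32 for the denser and 0.15 for the sparser member, while rho with the gene's own exon length was 0.16 and 0.11. These are descriptions across pairs that come from the same libraries, and members were assigned to denser or sparser from the same counts.

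Housekeeping genes were then read as a group, since their mRNAs are known to be abundant in growing cells. The list took ribosomal, proteasome, respiratory chain, splicing, translation factor, tubulin, actin, chaperone and glycolysis symbols, and 44 counted pairs held exactly 1 such gene. It was the less dense member in 28 of them (63.6%), close to the 62.3% of all opposite-strand pairs with 1 such gene, so the share is near the background, and it was 51.2% in divergent pairs. It was lower in 4 of 4 libraries in 26 pairs (59.1%), against 59.4% over all opposite-strand pairs, higher in 4 of 4 in 15, and mixed in 3. The median ratio was 4.04-fold towards the partner. Median densities over libraries were 28.1 ± 7.14 CPM per kb (SD, n = 4) for the housekeeping members, 68.3 ± 4.53 for their partners and 7.18 ± 4.68 for 373 housekeeping genes without an opposite exon. In 6 of the 44 pairs the symbol matches the list by spelling only (Tubgcp4, Tubgcp6, Rps6kb1, Eif2ak1, Eef2kmt and Psmc3ip), and without them the count was 25 of 38. Psmb8, of the immunoproteasome, stands in this list and in the immune list below. Its pair is therefore counted in both, each time as the less dense.

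Single housekeeping genes stood on both sides. Psmb7, a subunit of the proteasome core, had 40, 22, 27 and 15 counts against 4049, 4844, 3940 and 2895 for Nek6, a mitotic kinase. Vcp had 56, 17, 16 and 56 counts against 4115, 4558, 3041 and 2641 for 1700022I11Rik. Srsf4, a splicing factor, had 388, 279, 213 and 136 counts against 4243, 4733, 3526 and 2720 for Gm12992. In these 3 pairs the partner was higher in every library, by 5.63 ± 0.49, 6.92 ± 1.15 and 3.25 ± 0.37 log2 units of density.

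Among the exceptions were Psmc3, an ATPase of the proteasome cap, with 149, 153, 148 and 110 counts against 0, 9, 5 and 2 for the zinc transporter Slc39a13, and Rps25, a small-subunit ribosomal protein, with 1260, 919, 667 and 880 against 493, 504, 347 and 375 for Ccdc84. These 2 were picked with their values in view, from the 16 pairs in which the housekeeping gene was the denser. Mrps25, described above, is another. Cox5a, a subunit of cytochrome c oxidase, and Rpl22l1, a ribosomal protein paralog, each had fewer than 90 counts in every library, while their partners Gm26631 and Gm33051 had 1878 to 3987.

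Genes of T cell signalling and immunity were read in the same way from a list of 193 symbols, of which 14 are convergent members and 13 stood in counted pairs. All 13 ranked the same way in 4 of 4 libraries, against 92.9% of all opposite-strand pairs that do so. The immune gene was the less dense member in 8 (61.5%) and the denser in 5, while over all opposite-strand pairs with 1 such gene it was the less dense in 83.8% of 37, and in 100% of 7 divergent pairs. No direction for immune genes in convergent pairs is read from 13 pairs set against that background. The less dense included Psmb8, Tyk2, Icam1, Il12rb2, Plcg1, Nfatc3 and Itga4, and the 5 denser were Cd247, Junb, Cd72, Ptgdr2 and Csf1r. The median ratio of immune gene over partner was -3.46 log2 units. With bulk RNA, fewer cells of a type and less RNA per cell cannot be told apart for any of these genes. The strand that the kit reads is also not given, so a low count here is not read as low expression of the named gene.

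Among cytokine and T helper genes, Il12rb2, the signalling chain of the IL-12 receptor that marks the Th1 path, had 84, 40, 33 and 71 counts against 6032, 5723, 3889 and 3877 for Serbp1. Tyk2, a Janus kinase of cytokine receptors, had 17, 9, 26 and 7 counts against 660, 989, 764 and 448 for 1700084C06Rik. The latter is an antisense gene with 750 bp of exon, of which 73.9% is shared with Tyk2. In both pairs the partner had more counts in every library, as the order of most pairs was constant over the libraries.

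Ptgdr2 encodes CRTH2, the prostaglandin D2 receptor used as a surface marker of Th2 cells. It had 118, 88, 37 and 21 counts, and its partner Ccdc86, a nucleolar protein, 6, 5, 7 and 9, a ratio of 4.05 ± 1.44 in favour of Ptgdr2. The 2 genes share 1031 bp on chromosome 19, and both 3′ ends lie in the shared stretch. On the scale of CPM, Ptgdr2 had 66.3, 47.4, 25.6 and 16.5 and was lower in replicates 3 and 4 than in 1 and 2. The 5 Th2 markers without an opposite exon, read in raw counts, did not move alike. Il13 had 150, 62, 40 and 208 counts, Ccr4 60, 42, 31 and 110, and Ccr8 13, 0, 5 and 25, each highest in replicate 4. Il4 had 104, 110, 84 and 64 and was lowest in replicate 4, and Il1rl1 had at most 1 count.

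T cell receptor signalling genes lay on both sides. Cd247, the zeta chain of the receptor complex, had 533, 577, 389 and 338 counts and shares 3007 bp, or 56.4% of its exon, with Pou2f1, the octamer factor Oct-1, at 1078, 1249, 1032 and 707. Per kb Cd247 was denser by 0.49 ± 0.18, although it had fewer counts, so the order of these 2 turns with the length. Plcg1, the phospholipase that the receptor activates, had 51, 12, 6 and 40 counts against 545, 673, 462 and 452 for Zhx3. Nfatc3, a calcium-regulated factor, had 65, 60, 36 and 33 counts against 299, 229, 166 and 117 for Esrp2, a splicing regulator known from epithelia. Junb, a subunit of AP-1, had 560, 316, 229 and 319 counts against 95, 42, 39 and 54 for Prdx2, a peroxiredoxin, a ratio of 3.04 ± 0.17.

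Adhesion and lineage genes showed the same variety. Icam1 had 21, 1, 6 and 6 counts against 644, 736, 574 and 429 for Gm47079, which ends inside the last exon of Icam1 as printed above. Itga4, the alpha 4 integrin, had 157, 119, 157 and 122 counts against 249, 247, 238 and 124 for Cerkl, a ceramide kinase-like gene, and was the less dense by 1.99 ± 0.42. Psmb8 was given among the highest pairs.

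Markers of other lineages also stood among the members. Csf1r, the growth factor receptor of macrophages, had 716, 827, 661 and 542 counts against 14, 5, 0 and 11 for Hmgxb3, an HMG-box gene with which it shares 871 bp. Cd72, a receptor of B cells, had 557, 681, 396 and 415 counts against 58, 38, 49 and 39 for Tesk1, a kinase best known from testis. Beside them, Cd68 had at most 33 counts and Cd79a at most 41 in any library, and Lyz2, Itgam and Ms4a1 were at 0, but these genes have no opposite exon and, as given above, the median such gene was at 0. The part of other cell types in these counts was not tested.

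**Figure D4:**
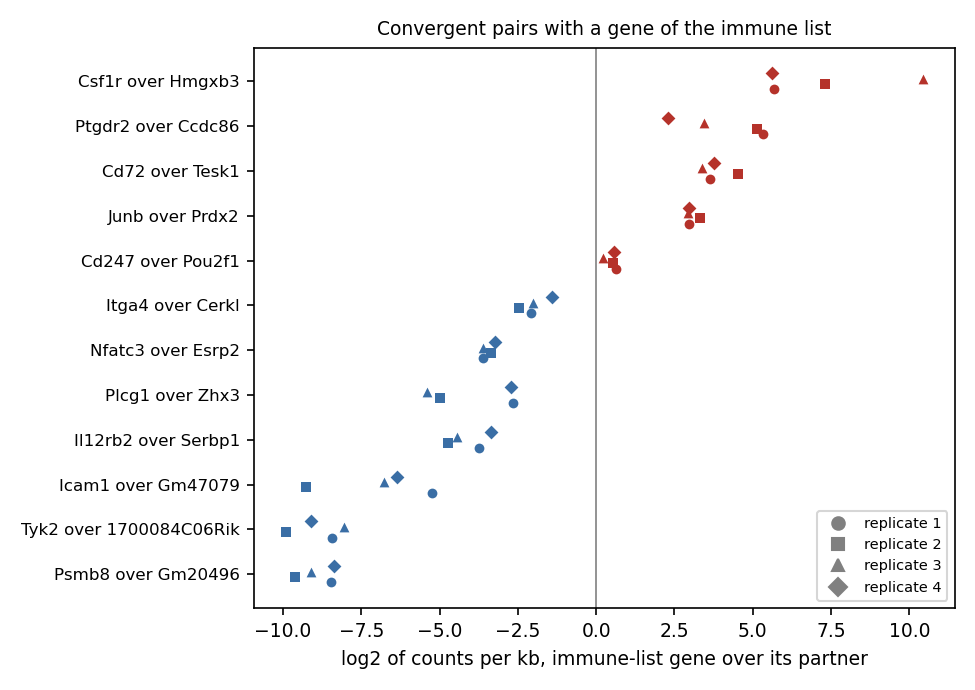
Log2 ratio of counts per kb, immune-list gene over its partner (horizontal), for 12 of the 13 counted pairs, 1 symbol per replicate. The blue pairs lie left of 0 and the 5 red pairs right of it in 4 of 4 libraries, from a mean of -8.89 for Psmb8 to 7.26 for Csf1r.

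The gap within pairs was not the same in the 4 libraries. The median fold between denser and sparser member was 14.1, 21.3, 22.7 and 12.6 in replicates 1 to 4, a ratio that no library scaling can alter. Divergent pairs moved with it, at 14.0, 32.0, 39.1 and 11.2. Genes without an opposite exon held more of the counts in replicates 1 and 4 than in 2 and 3, as given above, and the part of that shift in the pairs' gap was not tested.

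**Figure D5:**
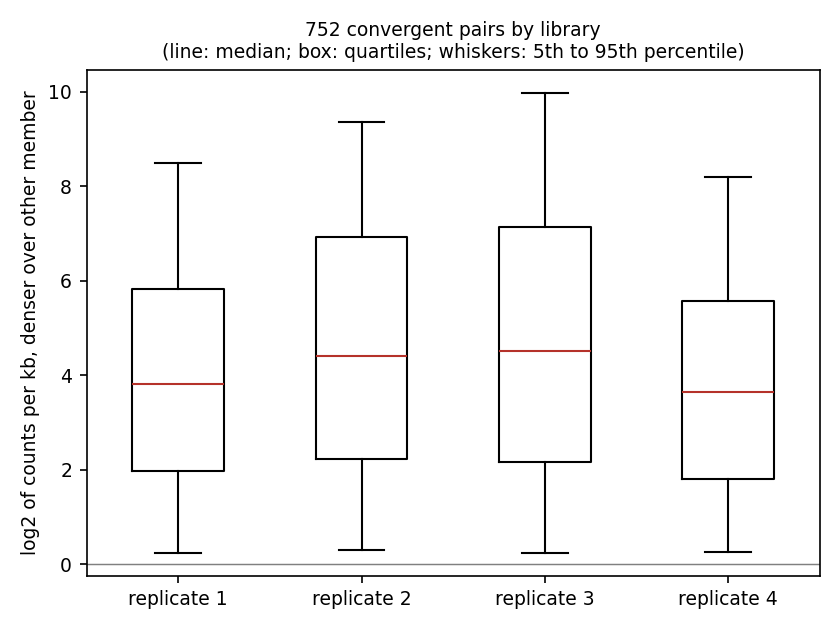
Log2 ratio of counts per kb, denser over other member (vertical), over the 752 counted pairs in each library, with the median as a line, quartiles as a box and the 5th to 95th percentile as whiskers. The medians are 3.81, 4.41, 4.50 and 3.65 in replicates 1 to 4, with wide overlap between the boxes.

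The spread between libraries differed between the 2 members by a size that rests on the scaling. Over 564 pairs with both members at a mean count of 10 or more, the median coefficient of variation of CPM was 14.1% for the denser and 37.5% for the sparser member, and the sparser varied more in 474 pairs. With CPM on TMM sizes, which an alternative chosen after seeing the data used, the medians were 23.8% and 36.3%, and the sparser varied more in 408. The median counts of these 564 denser members were 367 to 585.5 over the libraries and those of the sparser 34 to 61.5, and the part of depth in the difference was not tested. Members were assigned to denser or sparser from the same counts. No share for divergent or all opposite-strand pairs is given beside these, so they are not read as a trait of convergent pairs. Over 156 pairs with both members at a mean count of at least 100 the medians were 11.7% and 18.1% by CPM, with the sparser more variable in 111. By TMM sizes they were 22.1% and 24.6%, with the sparser more variable in 85 of 156, and this difference was not tested. The pairs with the widest spread of the ratio, among those where each member had at least 20 counts in every library, followed this. Chrac1, a histone-fold subunit, had 604, 764, 679 and 357 counts against 77, 33, 21 and 137 for Ago2, the Argonaute that cuts RNA, a ratio of 6.00 ± 1.63. Plppr3 had 2761, 3730, 2506 and 1625 counts against 108, 21, 56 and 114 for Ptbp1, a splicing repressor, a ratio of 5.47 ± 1.55.

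Further pairs of wide spread had a partner that was high in replicates 1 and 4. Nktr, a cyclophilin first known from natural killer cells, had 113, 43, 34 and 154 counts, while E530011L22Rik had 2849, 3186, 2866 and 1733. Rpl31, a large-subunit ribosomal protein, had 238, 69, 45 and 203 counts against 496, 508, 441 and 283 for Tbc1d8. Per kb Rpl31 was the denser in replicates 1 and 4 and Tbc1d8 in 2 and 3, so this pair changed sides.

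Most members varied between libraries beyond counting noise, as most genes did. By a chi-square test of the 4 counts against Poisson sampling, with Benjamini-Hochberg adjustment over the 7752 genes at a mean count of 10 or more, 1215 of 1377 members were past 0.05 (88.2%), the same as the 88.2% of all genes tested. With edgeR's quasi-likelihood test of 1 library against the other 3, 1 member was called. Themis, a protein needed for T cell development in the thymus, had 93, 26, 0 and 170 counts and was lower in replicate 3 with an adjusted p of 0.0025, where 0.0387% of all genes were called lower. Its partner, the pseudogene 4930519F09Rik, had 1057, 1073, 758 and 790 counts and was not called. No other member was called in either direction by edgeR in any of the 4 contrasts, and of all genes 0.0129% were called higher in replicate 2 and 0 in the remaining contrasts. The test sets 1 library against 3, and the lack of calls says nothing about how stable the members are. In simulated counts the same test called 1.5% of genes raised 4-fold in 1 library and 83.5% of those raised 16-fold. Unadjusted edgeR p-values under 0.05 were found for 2, 10, 33 and 64 of the 1377 members in replicates 1 to 4 (0.145%, 0.726%, 2.40% and 4.65%), against 0.426%, 2.79%, 9.37% and 8.81% of all 7752 genes tested. DESeq2 called 0 members.

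The number of calls rested on which libraries were set against each other. Without replicate 1, edgeR called 255 of 1350 members (18.9%), all of them in replicate 4 against 2 and 3, where 14.9% of all genes were called. Without replicate 2 it called 45 members (3.28%, against 9.21% of all genes) in replicate 3 against 1 and 4. Without replicate 3 it called 34 (2.45%, against 4.88%) in replicate 2 against 1 and 4. Without replicate 4 it called 16 (1.17%, against 2.3%) in replicate 1 against 2 and 3. No member was called in the other contrasts of these 4 settings, in each of which the lone library is assumed to vary like the rest.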

How the data were processed

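RNA of 4 libraries of mouse Th2 primary cells was measured as fragments per gene. The assay is labelled as total RNA-seq, though the linked library protocol carries poly(A) RNA in its name. Per the file headers, the authors' deposited values are raw fragment counts per gene, from featureCounts v1.4.6-p4 and STAR alignments (version not given in the sources used here), over exons of GENCODE M13 on mm10, paired, with both ends mapped and the strand option set to 1. Symbols and biotypes came from GENCODE M21 by identifier (50376 of 50600 matched). Exon overlaps between strands were found with bedtools 2.31.1. From the counts, CPM, CPM per kb of exon and ratios within a library were computed. Spread was tested on the 7752 genes at a mean count of 10 or more, with TMM sizes in edgeR 4.0.16, and with DESeq2 1.42.0 as the alternative, in R 4.3.3; Python 3.11.15 did the rest. The chi-square and edgeR steps were tested on simulated data with genes raised in 1 library. The chi-square test called 59.5% of genes raised 2-fold and 100% of those raised 4-fold. The edgeR test of 1 library against 3 called 1.5% of genes raised 4-fold and 83.5% of those raised 16-fold, so it misses most changes of 4-fold. Total counts of 1274431 to 1857433 set the depth, and intervals at 95% cover counting error only.

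The 4 libraries form 1 group, so genes were compared within each library, and replicates with each other. The members and the gene lists were chosen with earlier results of these data known. Pairs were named by rule among the counted pairs: the 10 of most counts, the 5 most and 5 least unequal, the 5 of widest spread, the 5 of longest shared exon, those with an immune gene, the 10 highest with a housekeeping gene, and members called by edgeR. Alternatives were other overlap limits, count minimums, pseudocounts, no length scaling, coding pairs only, other size factors, no filter, a window of 100 bases for the hexamer, and leaving out each library. No genome sequence was used, so 3′ ends were read from transcripts. Some pairs and genes of this rule are not reported here.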

Additional observations from a re-analysis of the deposited data

Results flagged for a closer look

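Of 149 sets of 4 values checked, 6 held a library farther from the others than Dixon's 95% limit for 4 samples allows, about the 1 in 20 that chance flags. Gm26642 stood at 1178 CPM in replicate 3. Acat3 had 6734 CPM in replicate 3, and the other libraries lay between 5930 and 5981. Cox5a had 52.6 CPM in replicate 4 against 2.15 to 7.86 in the others. Tmem263 had 135 CPM in replicate 4 against 98.3 to 100.3 elsewhere. The log2 ratio of Zfp280d over BC065403 was -13.07 in replicate 3, where Zfp280d had a count of 0. The log2 ratio of Prdx2 over Junb was -3.30 in replicate 2 against -2.96 to -2.95 in the others.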

How the results depend on the processing

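Of the 10 results recomputed under alternatives, the density differences kept their sign. The counts for housekeeping genes and for the more variable sparser member stayed a majority. The rest are shares or counts without a direction, which could not reverse, and several moved, as given below. The order of single pairs can turn. Without length scaling the denser member turned in 45 of 752 counted pairs, among the named ones Cd247 with Pou2f1 and Surf2 with Surf4. The sparser member varied more in 408 of 564 pairs with TMM sizes and in 443 to 462 with 1 library left out, against 474 (both added after the data were seen). The share of counts held by convergent members was 32.9% with a shared exon of at least 300 bp and 33.5% with a shared exon under 50% of either gene, and 40.7% to 42.4% with 1 library left out. Among pairs of 2 protein-coding genes, 438 of 483 had the same denser member in 4 of 4 libraries and 237 were at least 10-fold unequal. Housekeeping genes were the less dense in 18 of 27 pairs that share at least 300 bp, in 19 of 35 pairs (54.3%) of 2 protein-coding genes and in 27 of 44 by counts without length. The hexamer stood in the last 100 bases of 66.2% of members. The edgeR count of 1 call became 0 with DESeq2 and lay between 16 and 255 with 1 library left out (added after the data were seen, 1 library against 2): it was 255 without replicate 1 (all in replicate 4), 45 without replicate 2 (all in replicate 3), 34 without replicate 3 (all in replicate 2) and 16 without replicate 4 (all in replicate 1), and the cause was not tested. The density differences stayed positive in all libraries, at 1.13 to 2.20 against divergent genes and 1.98 to 5.84 against genes without an opposite exon, both highest with 0.1 added in place of 1. TMM sizes differ from total counts by -0.23 to 0.24 on the log2 scale, which changes CPM levels and coefficients of variation between libraries but no ratio within one. No paired analysis was possible because the 4 libraries form 1 group. Depth limits the sparser members, whose median count over the 752 counted pairs was 20 to 36.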
